A study of Mus musculus with 6 samples.

Results

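The livers of female CD-1 mice given BHPF were compared with those of vehicle-treated mice across all genes on a one-colour Agilent array. The comparison used 2 of the 6 arrays of the series, chosen by their tissue label, and the other 4 arrays hold the ovaries and uteri of the same study. BHPF (fluorene-9-bisphenol) is a bisphenol used in plastics sold as free of bisphenol A, and the study examined it for anti-oestrogenic activity. CD-1 is an outbred strain. The control group received peanut oil and the other group received BHPF in peanut oil at 50 mg per kg of body weight per day, both by gavage for 3 days, and the immature females are labelled as 24 days old. The labels name no transgene and no agent other than BHPF and peanut oil. RNA of 3 animals was mixed for each array, so that each side is 1 pool and no spread between animals can be had. No p-value is therefore given for any difference between the groups. The 2 liver arrays lay at different places of 1 slide, and the place, the pool and the treatment cannot be told apart.

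A level is the log2 intensity of a probe minus the 75th percentile of its array, at an intensity of 3443 for control liver and 3292 for BHPF liver. Of 55681 probes, 35571 in control liver and 34126 in BHPF liver were well above background, as called by the scanner software. The lowest intensity well above background was 70.0 in control liver and 109.6 in BHPF liver. The log2 ratio is the BHPF level minus the control level, and a difference of at least 1 (2-fold) is called. A probe well above background on 1 array only is set against the higher of its own dim value and the lowest level well above background on the dim array, so that its ratio is a bound and is written as "at least". Noise between repeated spots of the same probe gives a single log2 ratio an SD of 0.18, which covers printing and hybridization within an array and says nothing of the animals.

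Each ratio is given after the shift by the 75th percentile and, where it matters, after quantile normalization of the 2 liver arrays, which forces both to the same distribution. Of 36578 probes evaluated, 2203 (6.02%) passed 2-fold upwards in BHPF liver and 390 (1.07%) downwards. Quantile normalization gave 1212 higher (3.31%) and 718 lower (1.96%). Over 15530 named genes, 497 (3.2%) were higher and 239 (1.54%) lower, against 251 (1.62%) and 396 (2.55%) after quantile normalization. The median ratio of these genes was 0.00, and −0.06 after quantile normalization. All 239 lower genes and 250 of the 497 higher genes passed 2-fold under both. Scaling by the 50th percentile instead moved the median of all genes to −0.30, so that every ratio given here is relative to the scaling chosen.

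As background, the liver holds hepatocytes, which make plasma proteins and metabolize drugs, together with resident macrophages (Kupffer cells), sinusoidal endothelium, and leukocytes and platelets carried in its blood. Neutrophils store antimicrobial proteins and proteases in granules that are filled stepwise during maturation in the bone marrow. Mouse stefin A genes form a cluster of recent duplicates that encode small inhibitors of cysteine proteases of the cathepsin type and are known for their high expression in neutrophils and their precursors.

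Both arrays carried the profile of liver. All 25 hepatocyte markers were well above background on both arrays, none differed by 2-fold, and their ratios ran from −0.33 to 0.24 with a median of 0.04. Albumin (Alb) had levels of 6.07 in control liver and 5.77 in BHPF liver. The glycolytic enzyme gene Gapdh had levels of 4.15 on both arrays. Of the lists of other tissues, 8 of 18 pancreas genes and 4 of 10 skeletal muscle genes were well above background on both arrays, and Myl1, higher by 1.14 and by 0.66 after quantile normalization, was the single gene of either list past 2-fold. Of 5 evaluated ovary genes 1 was higher, and 1 was higher and 1 lower after quantile normalization, and of 8 adipocyte genes 1, Cfd, was lower (−1.63) under both scalings. The erythroid genes, among which haemoglobin Hba-a1 had levels of 5.40 and 5.25, had a median of −0.10 over 19 genes. Klf1, an erythroid transcription factor, was lower by 1.52 on the log2 scale. Another gene of the list was called higher, with a ratio of 1.34. After quantile normalization none was higher and 2 were lower. For these lists the shares over all genes were 3.2% higher and 1.54% lower, and 1.62% and 2.55% after quantile normalization.

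The 6 largest downward ratios between the liver arrays were those of genes of the stefin A cluster, a group of which 11 of 14 listed genes were on the array and all 11 were evaluated. In 8 of the 11 the signal was 20.8-fold to 73.9-fold lower in BHPF liver, the 20.8-fold being a bound, beside 1.54% of all genes at least 2-fold lower. Stfa3 had a level of 2.61 in control liver and −3.60 in BHPF liver, which is 73.9-fold lower. In control liver Stfa3 was thus brighter than the 75th percentile of probes, and in BHPF liver it was among the dim ones. Cstdc4 had levels of 2.51 and −3.11, Stfa2 had 2.71 and −2.74, and Cstdc5 had 3.38 and −2.05, which are 49.2-fold, 43.8-fold and 43.1-fold lower. Stfa2l1 (1.70 and −3.43) was 35.0-fold lower and Stfa1 (2.65 and −1.98) 24.8-fold lower. Csta2 had levels of 1.42 and −4.21 (49.4-fold lower), with an outlier flag among its spots. Cstdc6 was well above background on the control array only, at a level of −0.53, and was at least 20.8-fold lower.

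The remaining 3 members did not share that difference. Csta3 was dim on both arrays, with levels of −3.09 and −3.52 and a ratio of −0.43. Cstb, which encodes the ubiquitous stefin B outside the cluster and was listed as a comparison gene, had levels of 3.98 and 3.70. Csta1 was well above background on the BHPF array only, at a level of −4.31, with a ratio of at least 1.31 that became 0.84 after quantile normalization. Csta1 is thus the single member called higher. The median of the 11 genes was −5.13, and −5.29 after quantile normalization. Probes of near-identical stefin genes may read each other's transcripts, so the 8 lower values are not 8 independent measurements, and how far the probes cross-hybridize was not tested.

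The stefin promoters show how alike these genes are. RefSeq (GRCm38.p6) windows of the 250 bases before the annotated start are printed 5′ to 3′ for 3 lower genes, for Csta3, which was close between the arrays, and for Csta2, which was lower but has an unlike window. Capitals mark ACCTTTAAAACC, the longest stretch of letters found in all 6 windows of Stfa1, Stfa2, Stfa2l1, Stfa3, Cstdc4 and Cstdc5 and sought on both strands.
Stfa3, chr16:36455393-36455642, minus strand: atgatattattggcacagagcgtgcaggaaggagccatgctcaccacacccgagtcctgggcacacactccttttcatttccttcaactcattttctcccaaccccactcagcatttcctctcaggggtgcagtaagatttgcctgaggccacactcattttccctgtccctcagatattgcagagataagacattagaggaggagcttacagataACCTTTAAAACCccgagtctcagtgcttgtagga
Stfa1, chr16:36276898-36277147, plus strand: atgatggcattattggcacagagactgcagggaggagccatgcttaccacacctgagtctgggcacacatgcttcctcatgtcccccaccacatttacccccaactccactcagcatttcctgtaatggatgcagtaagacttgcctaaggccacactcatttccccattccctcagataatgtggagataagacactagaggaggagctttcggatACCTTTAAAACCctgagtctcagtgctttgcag
Cstdc4, chr16:36183962-36184211, plus strand: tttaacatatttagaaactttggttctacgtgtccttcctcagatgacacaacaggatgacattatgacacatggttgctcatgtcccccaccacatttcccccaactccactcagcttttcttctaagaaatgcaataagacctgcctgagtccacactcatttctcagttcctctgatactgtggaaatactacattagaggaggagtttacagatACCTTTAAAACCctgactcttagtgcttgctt
Csta3, chr16:36210153-36210402, plus strand: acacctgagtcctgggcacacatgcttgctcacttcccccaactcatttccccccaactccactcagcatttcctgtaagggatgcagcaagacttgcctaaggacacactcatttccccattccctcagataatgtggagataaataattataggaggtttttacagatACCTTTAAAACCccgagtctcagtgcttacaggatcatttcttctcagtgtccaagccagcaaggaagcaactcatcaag
Csta2, chr16:36221312-36221561, plus strand: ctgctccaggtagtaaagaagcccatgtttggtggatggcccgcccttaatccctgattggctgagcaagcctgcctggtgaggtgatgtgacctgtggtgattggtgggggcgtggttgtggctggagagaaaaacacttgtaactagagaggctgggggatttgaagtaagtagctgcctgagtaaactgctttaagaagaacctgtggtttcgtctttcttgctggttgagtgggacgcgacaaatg
The stretch was in 11 of 32851 windows of all annotated genes (0.0335%), and 8 of those 11 belonged to the stefin list, in which Cstdc3 has 2 windows. Of these 8, 6 were the windows that defined the stretch, so that their match was fixed in advance. The stretch began 34, 33 and 32 bases before the start of Stfa3, Stfa1 and Cstdc4. Between the 6 lower genes the windows were 64.5% to 89.4% identical in global alignment over 15 pairs. Csta3 carried the same letters, 80 bases before its start, and was 52.2% to 60.4% identical to the 6, while Csta2 carried none and was 41.0% to 45.0% identical. The shared letters therefore did not sort the lower genes from the others, and they were chosen after the values had been seen.

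**Figure D1:**
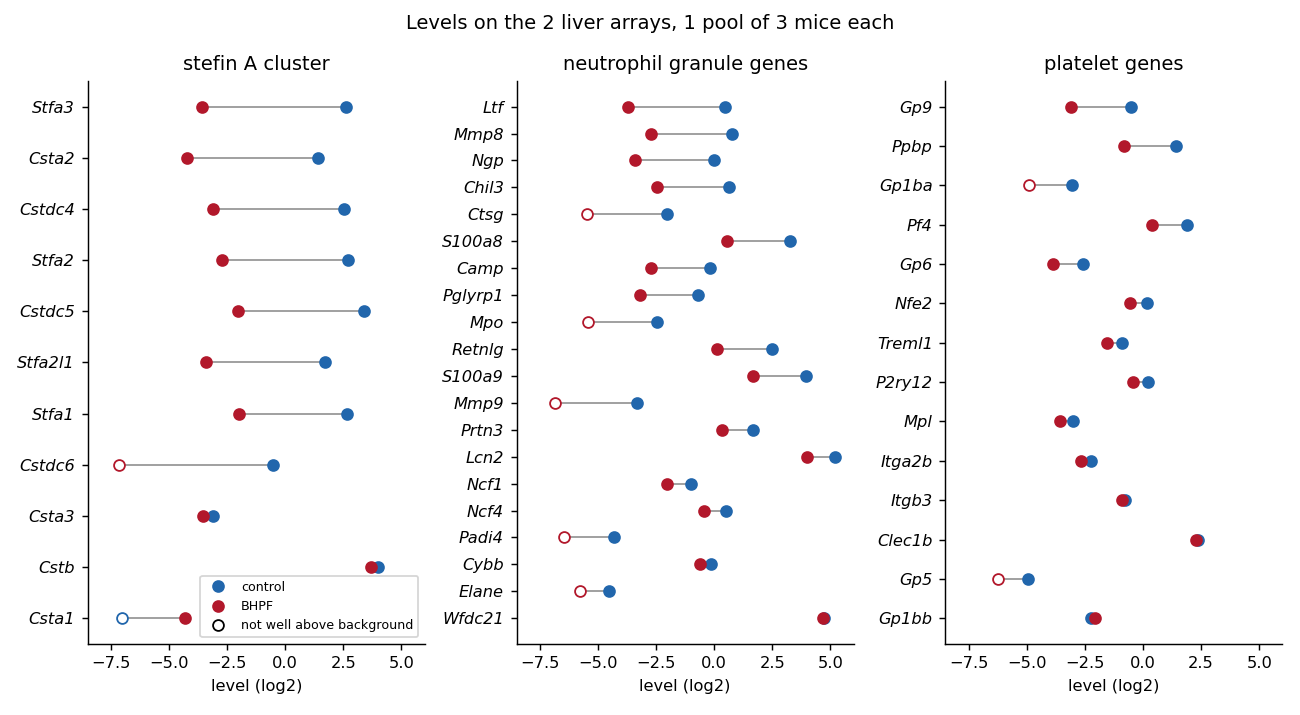
Levels (log2 intensity minus the 75th percentile of the array) of the genes of 3 lists (20 of the 21 granule genes) on the control (blue) and BHPF (red) liver arrays, 1 pool of 3 mice each. Open circles were not well above background, and genes are ordered by their log2 ratio. Of the 11 stefin genes, 8 have log2 ratios of −6.21 to −4.38, the last a bound, and no granule gene shown lies to the right in BHPF liver.

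Genes of neutrophil granules were lower as a group. Of 21 listed genes all were on the array and were evaluated. At least 2-fold lower were 15, beside 1.54% of all genes, none was higher and all 21 ratios were below 0. The median was −2.27, and −2.30 after quantile normalization, while that of all genes was 0.00. In 16 of the 21 genes both arrays were well above background, and their median was −2.32. The other 5 (Ctsg, Mpo, Mmp9, Padi4 and Elane) were well above background in control liver only, so that their direction was fixed by that filter.

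Among the genes of secondary and tertiary granules, lactoferrin (Ltf), an iron-binding protein, had levels of 0.47 in control and −3.71 in BHPF liver and was 18.1-fold lower. The collagenase Mmp8 had levels of 0.78 and −2.70, and neutrophilic granule protein (Ngp) had −0.02 and −3.39. Cathelicidin (Camp), an antimicrobial peptide, was lower in both of its probes, by 2.42 and 2.68 on the log2 scale. All 4 of these genes were well above background on both arrays, and each was 5.86-fold to 18.1-fold lower. Lipocalin 2 (Lcn2), which binds bacterial siderophores and is also made by hepatocytes, had levels of 5.19 and 4.01 and was 2.27-fold lower. The gelatinase Mmp9 was at least 1.59 lower on the log2 scale, from a control level of −3.32.

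The calprotectin subunits S100a8 and S100a9, which are abundant in neutrophil cytoplasm, had control levels of 3.26 and 3.96 and BHPF levels of 0.54 and 1.69. They were 6.63-fold and 4.83-fold lower and stayed well detected. The resistin-like gene Retnlg (2.49 and 0.11), the chitinase-like gene Chil3 (0.62 and −2.47) and the peptidoglycan-binding Pglyrp1 (−0.70 and −3.18) were lower by 2.38, 3.09 and 2.48. Primary granule genes are made in marrow precursors. Proteinase 3 (Prtn3) had levels of 1.66 and 0.35. Myeloperoxidase (Mpo) had a ratio of −2.46 and cathepsin G (Ctsg) of −2.88, both bounds and both from control levels under −2. Neutrophil elastase (Elane) was lower by at least 0.41, from a control level of −4.50 close to the detection limit.

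Subunits of the phagocyte NADPH oxidase, which makes superoxide and is shared with macrophages, differed less. Ncf1 was 1.03 lower, and Ncf4 and Cybb had ratios of −0.96 and −0.48. Wfdc21, which was among the brightest genes of the list with levels of 4.75 and 4.70 and an outlier flag, had a ratio of −0.05.

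The upstream windows of 3 of the granule genes are printed because the C/EBP family of transcription factors is known for its part in granule gene expression. Capitals mark matches to TTGCNNAA on either strand, a short core of the C/EBP site, in RefSeq (GRCm38.p6) windows of 250 bases before the start.
Ltf, chr9:111019042-111019291, plus strand: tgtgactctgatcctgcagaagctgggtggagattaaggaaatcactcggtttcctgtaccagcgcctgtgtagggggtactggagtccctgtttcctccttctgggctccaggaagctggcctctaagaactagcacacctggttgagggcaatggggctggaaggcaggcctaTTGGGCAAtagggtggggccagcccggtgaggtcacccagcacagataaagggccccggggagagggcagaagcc
Ngp, chr9:110419558-110419807, plus strand: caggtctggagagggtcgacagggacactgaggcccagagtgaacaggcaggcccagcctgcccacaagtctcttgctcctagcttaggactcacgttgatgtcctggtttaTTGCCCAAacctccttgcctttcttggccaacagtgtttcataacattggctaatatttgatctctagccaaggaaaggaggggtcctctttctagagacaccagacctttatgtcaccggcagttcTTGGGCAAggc
Mmp8, chr9:7558179-7558428, plus strand: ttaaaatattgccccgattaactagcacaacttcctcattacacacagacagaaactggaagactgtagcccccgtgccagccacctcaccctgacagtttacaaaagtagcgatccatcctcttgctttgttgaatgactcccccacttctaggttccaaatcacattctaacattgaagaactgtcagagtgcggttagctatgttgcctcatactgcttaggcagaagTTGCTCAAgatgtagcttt
These letters were in 6 of the 17 granule gene windows (35.3%), in 4 of 11 stefin windows (36.4%) and in 9.56% of all 32851 windows. The 4 stefin windows were those of Stfa1 and Cstdc5, which were lower, Csta3, which was close between the arrays, and 1 of Cstdc3, which was not evaluated. The windows of the lower genes Stfa2, Stfa2l1, Stfa3, Cstdc4 and Csta2 held none. They were in 2 of 17 windows of surface receptors (11.8%) and 2 of 11 of platelet genes (18.2%), lists that were also lower in part. Ngp held 2 matches, and Ltf and Mmp8 held 1 each. The windows of S100a8, Camp and Chil3 held none, although these genes were 5.86-fold to 8.52-fold lower.

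Receptors on the neutrophil surface were lower in smaller part. Of 18 evaluated genes 6 were at least 2-fold lower, beside 1.54% of all genes, and none was higher, 16 were below 0, and the median was −0.85 (−0.94 after quantile normalization, with 8 lower). The formyl peptide receptor Fpr2 had levels of 1.40 and −0.64 and was 4.13-fold lower, while its relative Fpr1, with 1.83 and 0.94, had a ratio of −0.89. Trem3 had levels of −1.35 and −4.73, a difference of 10.4-fold. The integrin beta chain Itgb2, carried by all leukocytes, was 2.85-fold lower, from 2.32 to 0.81. The decoy receptor Il1r2 was 1.35 lower, and Ccr1 and Clec4e had ratios of −1.68 and −1.32, bounds whose direction was fixed by detection in control liver only. The chemokine receptor Cxcr2 (−0.94) and the lectin receptor Clec4d (−0.86) lay just inside 2-fold, and after quantile normalization their ratios were −1.17 and −1.02.

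Some genes of the list did not move with it. The G-CSF receptor Csf3r had levels of 4.28 and 4.12, and Trem1 had 4.50 and 4.52. The 3 probes of the integrin alpha chain Itgam disagreed, with levels of −2.41 and −3.93, of 4.99 and 5.17, and of −4.64 and −4.09, so that their mean ratio of −0.27 describes none of them. Ly6g, a defining neutrophil marker, was not among the genes evaluated. In bulk RNA, fewer cells of a type and less RNA of these genes per cell cannot be told apart, and this holds for each of the cell lists.

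Monocyte genes were lower only in part. Of 16 evaluated genes, 4 were at least 2-fold lower, beside 1.54% of all genes, and none higher, with a median of −0.27. Chitinase 3-like 1 (Chil1), a secreted glycoprotein of several myeloid cells, had levels of 1.02 and −3.93 and was 31.0-fold lower. The coagulation factor XIII A chain (F13a1), detected in control liver only, had a bound of −3.52, the LPS co-receptor Cd14 was 4.76-fold lower (1.17 and −1.08) and Treml4 was 1.18 lower. The defining receptor of inflammatory monocytes, Ccr2, had levels of −1.04 and −0.87, and Ms4a4c, Ly6c1, Plac8 and the lysozyme gene Lyz2 had ratios between −0.11 and −0.03. Cx3cr1, the receptor of patrolling monocytes, had a ratio of −0.67 with 1 probe at −1.19 and the other at −0.16.

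The Kupffer cell list had a median of −0.24 over 19 genes, all well above background on both arrays. Of these, 14 were below 0. At least 2-fold lower were 2 and higher 1, beside 1.54% and 3.2% of all genes. The scavenger receptor Marco, which binds bacteria, had levels of 3.57 and 1.72 and was 3.62-fold lower. The macrophage marker Adgre1 (F4/80) was 2.12-fold lower, with probes at −1.34 and −0.83. Clec4f, a lectin confined to Kupffer cells in mouse liver, had levels of 3.51 and 3.73, and the apoptosis inhibitor Cd5l had 3.78 and 3.41. Marco and Adgre1 were thus lower while the defining Kupffer gene Clec4f was not. Cd163 was 1.27 higher at very low levels (−5.35 and −4.08) and lost the call after quantile normalization, at 0.83.

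Platelet genes were also lower. Of 14 genes evaluated, 5 were at least 2-fold lower, beside 1.54% of all genes, and none higher, 12 were below 0, and the median was −0.62 (−0.72 after quantile normalization). Platelet factor 4 (Pf4) and Ppbp, chemokines stored in platelet granules, had control levels of 1.87 and 1.40 and BHPF levels of 0.37 and −0.83, so that they were 2.83-fold and 4.71-fold lower. Gp9 and Gp1ba, subunits of the receptor for von Willebrand factor, had ratios of −2.59 and −1.86, the second a bound from detection in control liver only, and the collagen receptor Gp6 was 1.28 lower. Gp1bb, another subunit of that receptor, had a ratio of 0.19, from probes at −0.15 and 0.52. Clec1b, which is also known from liver endothelium, had levels of 2.38 and 2.30, and the integrin Itgb3 had a ratio of −0.14.

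**Figure D2:**
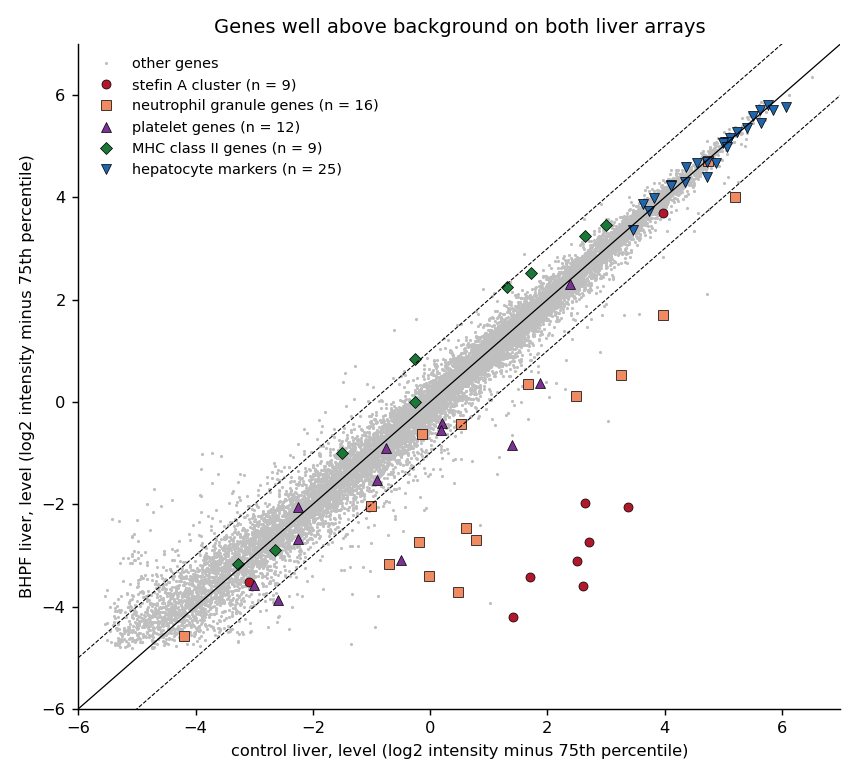
Level of each gene in control liver (x axis) against BHPF liver (y axis), for genes well above background on both arrays. The solid line marks equal levels and the dashed lines a 2-fold difference. The 25 hepatocyte markers lie within 2-fold, while 7 of 9 stefin genes and 12 of 16 neutrophil granule genes lie below the lower dashed line.

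Chemokines and cytokines that guide leukocytes were mostly close between the arrays, with 3 exceptions among 27 evaluated genes, all lower, beside 1.54% of all genes. Cxcl13, which attracts B cells, had levels of 3.04 and −0.37 and was 10.6-fold lower. The inflammasome product Il1b was 2.93-fold lower (1.54 and −0.01), and Cxcl14 was 1.70 lower at low levels (−2.61 and −4.31). Cxcl1, a neutrophil attractant made by hepatocytes and endothelium, had levels of 2.83 and 2.13 and did not pass 2-fold. Cxcl12, which retains leukocytes in the marrow, and Ccl9 had ratios of 0.25 and 0.29. The median of the list was −0.07.

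Acute-phase genes, which hepatocytes switch on in response to interleukin 6 and interleukin 1, were mostly a little lower. All 23 evaluated genes were well above background on both arrays, 21 were below 0, and the median was −0.33 (−0.36 after quantile normalization). Of the 23, 3 were at least 2-fold lower, beside 1.54% of all genes, and none higher. Serum amyloid A3 (Saa3) had levels of 4.72 and 2.11 and was 6.12-fold lower. Saa2 was 2.23-fold lower (4.51 and 3.35), and the orosomucoid Orm3 was 2.21-fold lower (3.98 and 2.83). The haem scavenger haemopexin (Hpx, −0.38), ceruloplasmin (Cp, −0.26), fibrinogen (Fgb, −0.19) and haptoglobin (Hp, −0.07) differed by less. Orm3 and Saa2 lay 0.15 past the threshold, which is less than the SD of 0.18 that spots give.

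Genes of the NF-kB response and of leukocyte adhesion moved the same way. Of 17 evaluated genes 16 were below 0, with a median of −0.41 (−0.52 after quantile normalization), and 2 were at least 2-fold lower, beside 1.54% of all genes. These were Cd14, given above, and Toll-like receptor 2 (Tlr2), with levels of 0.82 and −0.31 and an outlier flag. The signal inhibitor Tnfaip3 had a ratio of −0.99 and the adhesion molecule Icam1 of −0.58. Nfkbia, a direct NF-kB target, had levels of 3.32 and 3.41. Interferon-induced genes had a median of −0.06 over 21 genes, and none passed 2-fold.

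Antigen presentation went the other way. Of the 9 MHC class II genes, all well above background on both arrays, 8 were above 0 and the median was 0.50, which was 0.42 after quantile normalization and 0.18 after scaling by the 50th percentile. H2-DMa, which loads peptide onto class II molecules, was 2.14-fold higher (−0.26 and 0.84) and was the single gene of the list to pass 2-fold. Of all genes 3.2% were at least 2-fold higher. The invariant chain Cd74 had levels of 1.31 and 2.24, H2-Ab1 had 1.72 and 2.53, and H2-Aa had 2.64 and 3.25. Ciita, the class II transactivator, had 3.00 and 3.46, whereas H2-Oa was the gene below 0, with −0.25.

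Lymphocyte lists gave small values. NK cell genes had a median of 0.42 over 17 genes, with 14 above 0 and none past 2-fold, and 0.25 after quantile normalization (0.11 by the 50th percentile). The granzyme Gzma (0.28 and 0.48) and the chemokine Ccl5 (0.74 and 1.07) were the brightest of those above 0, and the adaptors Fcer1g and Tyrobp, which myeloid cells also use, had ratios of −0.57 and −0.40. T cell genes had a median of 0.15 over 19 genes. Of 16 B cell genes, 2 were at least 2-fold lower, beside 1.54% of all genes. Ms4a1 (CD20) was 1.13 lower, from a control level of −2.29, while Cd22 had levels of 3.19 and 3.41.

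**Figure D3:**
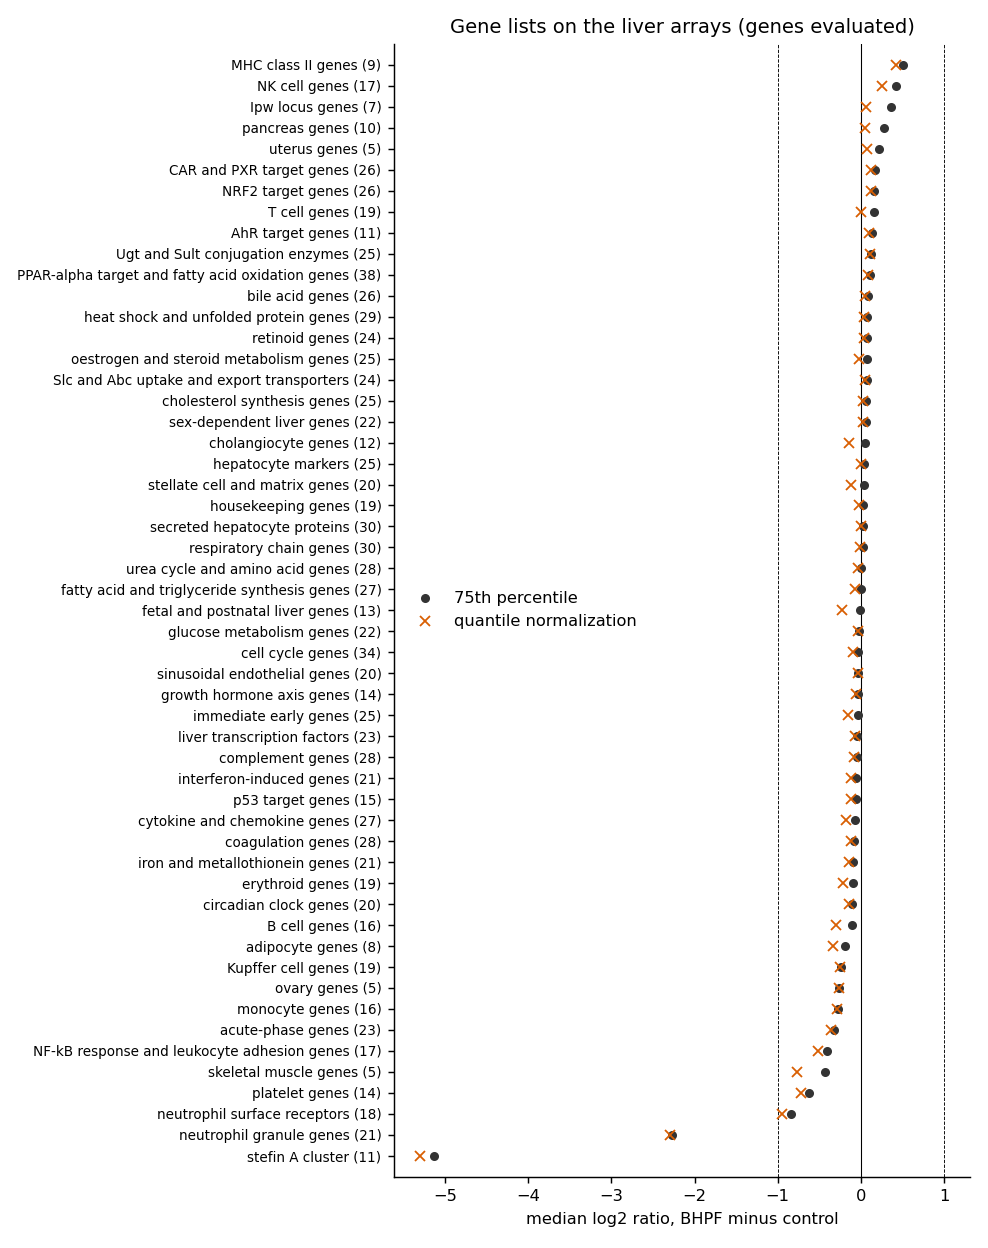
Median log2 ratio (BHPF minus control) of 53 gene lists on the liver arrays, with the number of genes evaluated in brackets, under the 75th percentile (dots) and quantile normalization (crosses). Dashed lines mark 2-fold. The stefin and neutrophil granule lists stand at −5.13 and −2.27, the hepatocyte list at 0.04, and the lists of liver function between −0.33 and 0.17.

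Genes of liver function were close between the arrays. The medians of 22 lists of secreted proteins, metabolism and nuclear receptor targets lay between −0.33 and 0.17. Under the 50th percentile the small positive medians of the CAR and PXR, NRF2 and conjugation lists turned to −0.14, −0.15 and −0.20, and the hepatocyte median to −0.28. Targets of the xenobiotic receptors CAR and PXR, which switch on drug-metabolizing enzymes, had a median of 0.17 over 26 genes. Of these 20 were above 0 and 1 was at least 2-fold higher, beside 3.2% of all genes. That gene was Cyp2c55, with levels of −1.43 and −0.09 (2.54-fold). The classical CAR target Cyp2b10 had levels of 3.04 and 3.50, and the PXR target Cyp3a11 had 4.61 and 4.43, a ratio of −0.18. Among targets of the aryl hydrocarbon receptor, Cyp1a2 had a ratio of 0.14 and Cyp1a1, at −1.24 and −2.17, a ratio of −0.93.

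Targets of the oxidative stress factor NRF2 had a median of 0.16 over 26 genes, with 20 above 0. At least 2-fold higher were 2, beside 3.2% of all genes. The glutathione transferases Gsta1 and Gsta2, which share much of their sequence, were 2.40-fold and 2.06-fold higher (−0.97 and 0.29, −0.45 and 0.60), and the quinone reductase Nqo1 had a ratio of 0.35. The brighter Gsta3 (4.98 and 5.12) and Gstm1 (3.91 and 4.03) differed by 0.14 and 0.12. Conjugation enzymes of the Ugt and Sult families had 21 of 25 genes above 0 and a median of 0.12, with none past 2-fold.

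Retinoid genes held 2 of the larger differences among enzymes. Cyp26a1, the retinoic acid hydroxylase that is itself switched on by retinoic acid, had levels of −1.45 and 0.56 and was 4.02-fold higher. Its relative Cyp26b1 was 2.92-fold higher (−1.89 and −0.34). The retinol-handling genes Rbp4 (0.24), Adh1 (0.22), Aldh1a1 (0.00) and Rdh7 (−0.10) were close, and the median of 24 genes was 0.07. Of the 24, 2 were at least 2-fold higher, beside 3.2% of all genes.

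Immediate early genes, which respond to stimuli within minutes, were level in the median (−0.04 over 25 genes), with 3 at least 2-fold higher, beside 3.2% of all genes. The zinc finger factor Egr1 had levels of −1.27 and 0.70 and was 3.92-fold higher. Fos was 2.46-fold higher at low levels (−3.91 and −2.61), with an outlier flag, and Fosl1 was higher by at least 1.03, which became 0.54 after quantile normalization. The insulin signalling adaptor Irs2 was just past 2-fold higher (0.52 and 1.53), and Phgdh, which starts serine synthesis, 2.30-fold higher (−2.70 and −1.5).

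Lipid and energy metabolism held no gene past 2-fold in the lists of PPAR-alpha targets (median 0.11 over 38 genes), cholesterol synthesis (0.07 over 25), fatty acid synthesis (0.00 over 27) and bile acids (0.09 over 26). Fabp1, the liver fatty acid binding protein, had levels of 5.22 and 5.35. Among oestrogen and steroid metabolism genes, the hydroxysteroid dehydrogenase genes were close, with Hsd17b2 at 4.14 and 4.25, while Cyp21a1 was 1.06 lower (−0.35 and −1.42). Of the 25 evaluated genes of that list 1 was called higher and 1 lower, beside 3.2% and 1.54% of all genes. After quantile normalization none of the list was higher and 1 lower, beside 1.62% and 2.55% of all genes. The oestrogen receptor Esr1 had levels of −0.12 and 0.51, a ratio of 0.64, with an outlier flag on a spot. Sex-dependent liver genes and circadian clock genes held none past 2-fold, with medians of 0.06 and −0.11.

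Most calls in either direction were of probes with a mean level under 0, where most evaluated probes also lay. Of the 2203 higher probes, 1322 were well above background on both arrays and 881 passed by their bound, and 96.2% had a mean level under 0. Of the 390 lower probes, 98 passed by their bound and 83.6% had a mean level under 0. A probe bright on 1 array and dim on the other can also have a mean level under 0. Of the 36578 probes evaluated, 14406 had a level of 0 or more on an array, among them 138 of the higher and 109 of the lower probes. The share of probes called higher was 26.7% at mean levels under −5, 15.7% between −5 and −4, 9.06% between −4 and −3, and 1.71% between −1 and 0. The lowest intensity well above background was 70.0 in control and 109.6 in BHPF liver. A probe detected in control liver only was thus set against a higher limit than one detected in BHPF liver only. Of 1052 probes detected in BHPF liver only, 881 were called higher. Of 2469 probes detected in control liver only, 98 were called lower. At the lowest levels the direction of calls was therefore partly fixed by detection. Of probes at a mean level of 3 or more, 0.0529% were called higher and 0.106% lower. Of probes at a level of 0 or more on an array, 0.958% were higher and 0.757% lower (0.923% and 0.764% after quantile normalization). The median ratio was 0.29 between −5 and −4 and −0.01 between 1 and 2. Quantile normalization turned the first of these medians to −0.09 and left 7.93% of those probes higher and 4.47% lower.

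**Figure D4:**
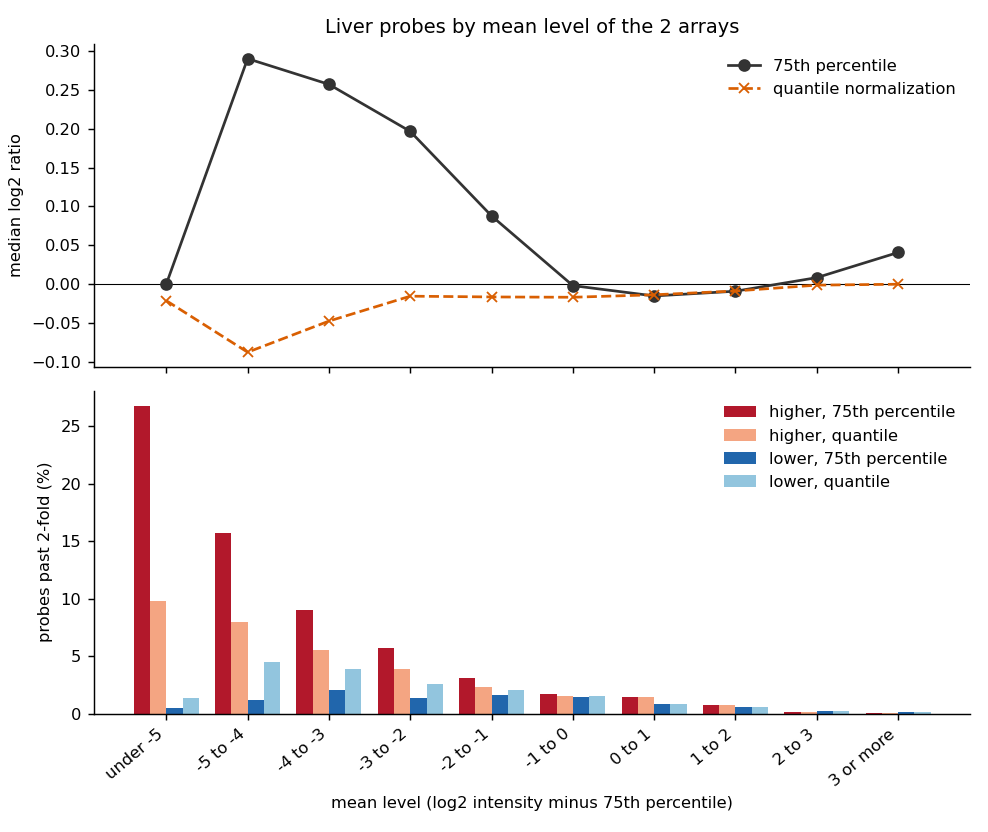
Median log2 ratio (upper panel) and percentage of probes past 2-fold in each direction (lower panel, bars from 0) against the mean level of the 2 liver arrays, under both scalings, over 36578 probes. Dim probes carry a median of up to 0.29 and most of the higher calls under the 75th percentile, and neither holds for probes at levels above 0.

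Spots that should not differ gave a scale for this. Of 10 spike-in probes, for RNA added in equal amount to each labelling, 8 were well above background on both liver arrays, and their ratios ran from −0.31 to 0.15 with a median of −0.06, down to a level of −4.13. The other 2, below background on both arrays at levels near −7.7 in control liver, had ratios of 0.71 and 0.72. The median intensity of negative control spots was 15.8 in control liver and 25.3 in BHPF liver. The share of higher probes also varied along the array, from 3.97% to 10.7% over 8 bands of rows (2.43% to 5.60% after quantile normalization), with the last band highest. The part of background and of place on the slide in the higher calls was not tested.

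Leaving out Lynx1, whose probes disagree, the 15 largest rises among genes measured on both arrays began from control levels between −5.42 and −3.57. Ipw, a noncoding RNA of the imprinted region that includes Snrpn, had levels of −5.42 and −2.29 and was 8.78-fold higher. Of its 6 evaluated neighbours, Mkrn3 was higher by at least 1.30 (0.84 after quantile normalization), while Snrpn had a ratio of 0.54, Ndn of 0.36, Magel2 of 0.13 and the ubiquitin ligase Ube3a of −0.46. Next came Plcl1 (−4.71 and −1.71), Tespa1 (−5.30 and −2.33), Svopl (−4.83 and −2.0), Atad3aos (−3.73 and −0.99) and Fbxo16 (−5.01 and −2.31). The other 9 genes were predicted genes and receptor or spermatid-type genes, namely Gm2897, Speer4b, Gm15085, Gm10439, Gm5622, Olfr487, Vmn1r33, BB014433 and Vmn1r6, with ratios between 2.28 and 2.59.

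The largest rises by bound were those of Cylc2, a sperm cytoskeleton gene, at 2.06 in BHPF liver and at least 7.69 higher, Vmn1r235 (at least 6.65), Pramel13 (5.54), Tas2r121 (5.01), Cntnap4 (4.99), Vmn2r58 (4.95) and Cldn34-ps (4.68). On the control array these 7 genes had dim values between −7.93 and −6.36, and their direction was fixed by detection in BHPF liver only. Each rests on 1 probe, and none had a ratio past 2-fold in the ovary or uterus pairs, where 5 of the 7 were not evaluated in ovary and 5 in uterus.

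Chemosensory receptor families were higher as groups, a pattern sought after these values had been seen. Vomeronasal and olfactory receptors are detected in sensory neurons of the nose, and their genes are not known as liver genes. Of 111 Vmn2r probes, 20 were well above background on both liver arrays, and 17 of these were at least 2-fold higher and none lower, with a median ratio of 1.47 (15 higher and 1.14 after quantile normalization). Of all probes well above background on both arrays 4.0% were higher and 0.883% lower. Another 27 probes were well above background in BHPF liver only and 64 on neither array. The median levels of the 20 probes were −4.31 in control and −2.92 in BHPF liver, and their BHPF levels ran from −3.86 to −0.26.

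Of 175 Vmn1r probes 21 were well above background on both arrays, and 11 were higher and none lower, with a median of 1.04 (8 higher and 0.68 after quantile normalization). Of 1158 Olfr probes 121 were well above background on both, and 22 were higher and 3 lower, with a median of 0.53 (0.22 after quantile normalization). Speer genes, a family expressed in spermatids, had 6 of 9 such probes higher and a median of 1.96. For comparison, of all such probes at mean levels from −5 to −3, a range that holds 14 of the 20 Vmn2r, 16 of the 21 Vmn1r, 85 of the 121 Olfr and 4 of the 9 Speer probes, 10.7% were higher and 0.775% lower (4.91% and 2.35% after quantile normalization). Without the limit on level, quantile normalization gave 2.31% and 1.47%. Over all 111 Vmn2r probes, with no filter, the median of their own signal ratios was 1.34, while that of all 55681 probes was 0.24. After quantile normalization these medians were 0.97 and −0.02. For the Vmn1r probes they were 0.98 and 0.28, and for the Olfr probes 0.77 and 0.07. After quantile normalization the Olfr median was thus near that of all probes, and the Vmn2r median was not.

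**Figure D5:**
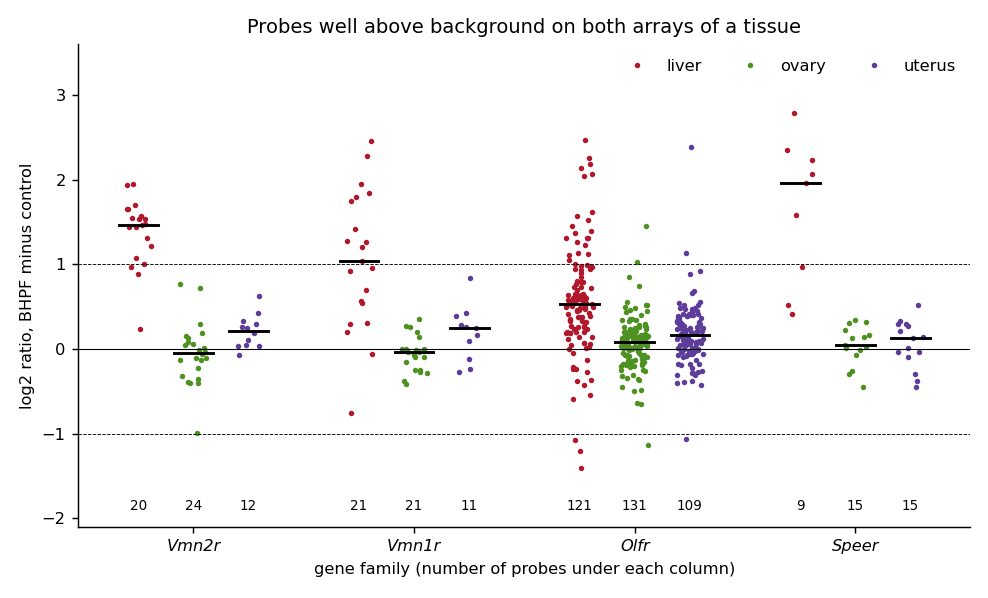
Log2 ratio (BHPF minus control) of each probe of 4 gene families that was well above background on both arrays of a tissue, with medians as black bars, dashed lines at 2-fold and the number of probes under each column. Liver medians are 1.47, 1.04, 0.53 and 1.96, and the ovary and uterus medians lie between −0.05 and 0.25.

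On the ovary arrays the 24 Vmn2r probes well above background on both had a median of −0.05, and on the uterus arrays 12 such probes had 0.21, with none past 2-fold in either. Of the 162 Vmn1r, Vmn2r and Olfr probes of the liver arrays, 50 were higher and 3 lower, against 2 and 1 of 176 on the ovary arrays and 2 and 1 of 132 on the uterus arrays. Of all probes evaluated, 0.681% were higher and 0.593% lower in the ovary pair, and 1.88% and 0.773% in the uterus pair. Whether the difference between tissues exceeds that between pools could not be tested.

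Probes with no gene name shared the pattern. Of 8856 evaluated probes designed to chromosome intervals outside named transcripts, 865 (9.77%) were higher and 32 (0.361%) lower, and of 19994 probes to curated RefSeq messenger RNAs 603 (3.02%) were higher and 301 (1.51%) lower. After quantile normalization the shares were 5.23% and 1.19% for the intervals and 1.54% and 2.47% for the messenger RNAs. Their median mean levels were −2.98 and −0.10, so that the classes also differed in brightness.

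Probes of the same gene can be set against each other. Of 3593 genes with several probes well above background on both arrays, 52 had a probe at least 2-fold lower, and in 40 of these all probes were below 0. Of 90 genes with a probe at least 2-fold higher, all probes were above 0 in 65. In 2 genes probes passed 2-fold in opposite directions, namely Arpc4, an actin-nucleating subunit, with ratios of −1.63 and 1.14, and the hyaluronan receptor Cd44, with −1.06 and 1.25. Lynx1 had a probe at 6.06 and another at −0.29, so its large mean rests on 1 probe.

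The same genes on the other arrays give each tissue's own pair, and whether the tissues came from the same animals is not given. The uterus values follow the conditions of the scanner files, while in the authors' table the columns headed for the 2 uterus arrays hold each other's values. With the uterus arrays exchanged each uterus ratio changes sign, so that no uterus direction is settled. The stefin A list had a median of −2.31 over 9 genes in ovary, with 7 at least 2-fold lower, beside 0.617% of all ovary genes. In uterus its median was −2.01 over 10 genes, with 7 lower, beside 0.823% of all uterus genes. Stfa3 had ratios of −2.77 in ovary and −2.15 in uterus beside −6.21 in liver. S100a8 had −3.13 and −1.52, S100a9 had −2.55 and −1.0, and Chil3 had −2.97 as a bound and −2.72. With the uterus arrays exchanged the stefin median is 2.01 with 7 genes higher, and Stfa3, S100a8 and Chil3 are at 2.15, 1.52 and 2.72. Neutrophil granule genes had medians of −0.89 (8 of 19 lower, 1 higher) in ovary and −0.45 (5 of 20 lower, 2 higher) in uterus, or 0.45 with the arrays exchanged.

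Other liver differences were shared in ovary for some genes and not for others. Platelet genes had medians of −0.01 in ovary and 0.13 in uterus. Cxcl13 was 2.38 lower in ovary and had −0.05 in uterus, and Marco was 2.71 lower in ovary and had −0.38 in uterus. Saa3 was 4.27 lower in ovary and had −0.76 in uterus. Egr1 had 0.29 and 0.01, and Ltf had −3.98 in ovary and 0.04 in uterus. The hepatocyte markers had medians of 0.05 in ovary and 3.35 in uterus, so that uterus values of genes with high liver levels stand beside that difference and its part in them was not tested.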

How the data were processed

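Total RNA of liver, ovary and uterus was labelled with Cy3 from 1 pool of 3 mice per group and hybridized to 6 one-colour Agilent arrays. The deposited scanner files hold spot intensity written by Feature Extraction (version 9.1 per the labels, 11.5.1.1 in the file headers; build mm9), background-subtracted by the authors' software. The authors' deposited table holds log2 values, which differed from the liver scanner values by 1 constant per array for 100% of 36578 probes (tolerance 0.001), with column medians of −1.25 and −1.17. In that table the columns headed for the 2 uterus arrays matched each other's scanner file.

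Control spots were dropped, spots with outlier flags were left out where others remained, spots of a probe were averaged, and log2 intensity was taken minus the array's 75th percentile. Probes well above background on either liver array were evaluated (36578), and 1 well above background on 1 array only was given a bound. A gene's value is the mean of its probes, named through RefSeq accessions. No spot was saturated. The liver arrays had 63.9% (control) and 61.3% (BHPF) of probes well above background. With 1 array per group, the number of arrays limits the precision and no test was made; values past 2-fold were called.

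Named genes (331) were the 15 largest differences each way measured on both arrays with agreeing, unflagged probes, the 8 largest by bound each way, of each list the members past 2-fold (at most 10) and the 4 brightest, all members of the 6 lists with a median at least 1.5-fold from 0 or with many members past 2-fold, and Gapdh. A few genes are not reported here. Some other genes are named for their role, after their values were seen. Members and lists, the latter partly taken over from an earlier analysis, were chosen with earlier results of these data known. Alternatives were quantile normalization, the 50th percentile, loess, normexp (offset 50), the authors' table, other filters, a 4-fold threshold and the brightest probe. Code was tested on simulated data. Python 3.11.15, numpy 2.4.6, pandas 2.3.3, statsmodels 0.14.6, biopython 1.88, R 4.3.3 and limma 3.58.1 were used.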

Additional observations from a re-analysis of the deposited data

Results flagged for a closer look

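In 4 genes the liver pair and another tissue's pair passed 2-fold in opposite directions, and with 1 pool per group none of these differences was tested. Cfd (adipsin), a complement protease made by adipocytes, had a log2 ratio of −1.63 in liver and 2.05 in ovary. Saa2, an acute-phase protein, had −1.15 in liver and 1.13 in ovary. Orm3 had −1.15 in liver and 1.45 in uterus. The granule protease Ctsg had −2.88 in liver, which is a bound, and 3.32 in uterus. The uterus values follow the scanner files' conditions, and the authors' table has those 2 columns exchanged. With the arrays exchanged Orm3 would be −1.45 and Ctsg −3.32 in uterus, the same direction as in liver. The hepatocyte markers had a median of 3.35 in the uterus pair (−3.35 exchanged), beside which the value of Orm3, a hepatocyte gene, stands.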

How the results depend on the processing

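Probes and genes at least 2-fold higher and lower were 2203 and 390, and 497 and 239. They became 1212, 718, 251 and 396 after quantile normalization, 1233, 944, 256 and 549 with the 50th percentile, 1294, 655, 270 and 369 after loess, 7093, 867, 1710 and 387 with no filter, and 400, 70, 80 and 51 at 4-fold. Requiring both arrays well above background left 1322 higher probes and 254 higher genes, and using a dim probe's own signal gave 658 lower probes and 365 lower genes. The 50 higher chemosensory receptor probes, a count added after seeing the data, became 33 with the 50th percentile and 8 at 4-fold. With the 50th percentile the medians were −5.44 (stefin), −2.59 (granule), −1.16 (receptor), −0.93 (platelet), −0.58 (monocyte) and 0.041 (Ipw locus). Normexp gave −4.64 (stefin), −1.77 (granule) and −0.64 (receptor). The stefin median was −5.43 with both arrays required, no filter or a dim probe's own signal, and the Ipw locus median was 0.058 after quantile normalization and 0.11 after loess. Under the 50th percentile each ratio that is not a bound moves by the same constant, so these list medians shift alike by construction. Filters and the threshold change the number counted by construction, and the cause of the other shifts was not tested.

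Of 162 named genes past 2-fold, 58 higher and 104 lower, none changed sign under the alternatives run on single genes. Past 2-fold in the same direction were 48 and 104 after quantile normalization, 37 and 104 with the 50th percentile, and 50 and 89 with normexp. No paired analysis was possible because each group has 1 array and the labels carry no replicate number. Signal over background limits the dim genes: probes under the lowest intensity well above background (70.0 in control and 109.6 in BHPF liver) have bounds only.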

Other observations

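Genes that were bright and past 2-fold under both scalings, members of the lists included, were gathered after their values had been seen. Of 92 genes with a level of at least 0 on an array, 72 were lower and 20 higher in BHPF liver. Over all 7545 named genes at such levels, under the 75th percentile alone and with no demand on flags, agreeing probes or detection on both arrays, 76 (1.01%) were lower and 22 (0.292%) higher, while over probes, unnamed ones included, 109 (0.757%) were lower and 138 (0.958%) higher. Several of the lower ones are known from myeloid cells. Ifitm6 had levels of 1.14 and −1.41, the lectin receptor Clec4n (dectin-2) 1.67 and −0.32, and Clec4a1 1.32 and −0.22. Spic, the transcription factor of red pulp macrophages, had 2.14 and 0.37. Toll-like receptor 1 (Tlr1) had 0.43 and −1.12, the signalling receptor Slamf9 1.11 and −0.45, and the paired receptor Pirb 1.83 and 0.59. Coro1a, an actin-binding protein of leukocytes, had 1.5 and 0.25.

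Other bright lower genes are enzymes, transporters and receptors. The nicotinamide methyltransferase Nnmt, which is abundant in liver, had levels of 2.89 and 0.98. The citrate transporter Slc13a5 was lower in both probes, with ratios of −2.44 and −1.53. Gfra2, a receptor of the GDNF family, had 2.30 and 0.25, and the endothelial protein C receptor Procr had 1.40 and 0.01. Raver2, an RNA-binding protein, had 0.86 and −2.41 and was the largest of these outside the lists. Among dimmer genes the mas-related receptors Mrgpra2a and Mrgpra2b were lower by 3.46 and by at least 3.57, and the prokineticin Prok2 by at least 2.76.

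Among the 20 bright higher genes, Psmc3ip, a recombination factor, had levels of −0.61 and 1.40, and the renin gene Ren2 −0.24 and 1.62. Pebp1, a kinase-binding protein, was the brightest of them in control liver, with 1.61 and 2.89. Psmc3ip and Ren2 rest on 1 probe each and Pebp1 on 2.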
